A study of Mus musculus with 20 samples.

Results

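Integrins are cell-surface receptors made of an α and a β chain, and T cells use them to bind blood vessel walls, other cells and tissue matrix. The RNA of 10 integrin subunits was followed here in mouse CD4+ T cells: Itga1, Itga2, Itga4, Itga6, Itgae, Itgal, Itgb1, Itgb2, Itgb3 and Itgb7. They were taken by gene symbol as 10 of the 22048 genes in the protein-coding count table, and all 10 were among the 13072 genes that passed the filter on low counts. The 20 libraries form 10 groups of 2. KO cells came from CD4Cre+DOT1L FL/FL mice, in which Cre driven from the CD4 gene deletes loxP-flanked Dot1l, the gene for the only known methyltransferase of lysine 79 on histone H3. WT cells came from CD4Cre+ mice, which carry the same Cre and no floxed allele, so both genotypes express Cre. The KO and WT groups were sampled as naive cells from spleen and peripheral lymph nodes, and after 4 days of Th1 or Th2 culture. All cultures were stimulated on plates coated with antibodies to CD3 and CD28, each at 1 µg/ml, with IL-2. Th1 wells also had IL-12 and anti-IL-4. Th2 wells had IL-4 and anti-IFN-γ in their place, with cytokines at 10 ng/ml and blocking antibodies at 10 µg/ml in both. WT cells of both cultures were also grown with 1 µM SGC0946, a DOT1L inhibitor, or with 1 µM SGC0649, its control compound. After culture, live CD4+ cells were sorted for RNA.

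Protein-coding counts ran from 9704500 to 13025588 per library. Dot1l RNA differed little in KO naive cells (log2 fold change -0.10, adjusted p = 0.544 by edgeR's quasi-likelihood test) and fell by 0.39 in KO Th1 and by 0.60 in KO Th2 cultures (adjusted p = 0.00841 and 0.000269). The counts cover the whole gene and not the deleted part alone, which limits what they say of the deletion. The 12 T cell markers were expressed in every library, with summed levels of 5097 to 5709 CPM (counts scaled to library size) in KO naive cells and 6609 to 6744 CPM in WT naive cells. Of the 12, 1 was called higher and 5 lower in KO naive cells. In Th1 they summed to 5058 to 5136 CPM in KO and 7695 to 7854 CPM in WT libraries, with 1 called higher and 10 lower. In Th2 they summed to 5487 to 6236 CPM in KO and 4859 to 5204 CPM in WT libraries, with 4 called higher and 6 lower. Over all genes tested, 28.4% were called in KO naive cells, 50.6% in KO Th1 and 53.4% in KO Th2. Cd4 itself was lower in KO cells, at 398 to 409 CPM in KO and 981 to 989.6 CPM in WT naive cells, 199 to 212 CPM in KO and 1007 to 1049 CPM in WT Th1 cultures, and 157 to 175 CPM in KO and 543 to 584 CPM in WT Th2 cultures. The part of this shift in the subunit values was not tested. Replicates of a group differed by more than counting error in all 10 groups. The spread was widest in WT Th2 with SGC0649 and in KO Th2, where chi-square values per degree of freedom reached 18.4 and 15.4, and narrowest in WT Th1, where the value was 2.2. No label says whether the 2 libraries of a group came from separate animals or cultures, so p-values measure the spread between these libraries, which may be technical.

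In T cells the pairs have distinct uses. LFA-1 (the products of Itgal and Itgb2) binds ICAM molecules and holds T cells to antigen-presenting cells and endothelium. The α4 chain (Itga4) pairs with β1 (Itgb1) to bind VCAM-1 and fibronectin, or with β7 (Itgb7) to bind MAdCAM-1 on gut vessels. The αE chain (Itgae, CD103) pairs with β7 and binds E-cadherin on epithelium. With α1 (Itga1) it is a usual marker of T cells that stay in tissue. The α1 and α2 (Itga2) chains belong to collagen receptors. The α6 chain (Itga6) pairs with β1 to bind laminin, and β3 (Itgb3) pairs with αv (Itgav) to bind vitronectin and osteopontin.

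The order of the subunits is given first in WT cells without compound, as CPM per kilobase of exon so that genes of different length can be set side by side. In WT naive cells Itgb7 stood highest at 277.7, followed by Itgb2 at 225, Itgal at 136, Itgb1 at 76.7, Itga4 at 54.9, Itgb3 at 38.4, Itga6 at 26.3, Itgae at 6.71, Itga2 at 1.10 and Itga1 at 0.358 CPM per kilobase (means, n = 2). No neighbours in that order had overlapping libraries. The exons counted for Itga4 add up to 13978 bases, the longest of the 10 genes, so its place depends on that length. In WT Th1 cells the order was led by Itgb2 at 329.9 and Itgal at 258 CPM per kilobase. In WT Th2 cells Itgb2 led at 178, and the libraries of the next pair, Itgb7 at 117 and Itgb3 at 110.2 CPM per kilobase, overlapped. Itga2 and Itga1 were the lowest 2 subunits in all 3 WT groups without compound.

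WT cells changed most of these genes on culture, as they did most of all genes tested. In Th1 cultures 7 of the 10 were called against naive cells (adjusted p under 0.05 by edgeR's quasi-likelihood test), 2 higher and 5 lower. Of all genes tested 67.3% were called there, 34.3% higher and 33% lower. In Th2 cultures 8 were called, 2 higher and 6 lower, beside 71.9% of all genes, 36.9% higher and 35% lower. Itgae, 1 of the 2 higher in Th2 (0.50 ± 0.21, adjusted p = 0.0414), was not called with no filter on low counts (adjusted p = 0.0665). Its call was also lost on leaving out any 1 library of the comparison, with 0.37 without WT naive replicate 1. Itga4 gave the steepest fall, to 83.6 and 78.7 CPM in WT Th1 libraries and 30.1 and 23.98 CPM in WT Th2 libraries, against 801 and 735 CPM in WT naive libraries (log2 fold change -3.24 ± 0.21 SE in Th1 and -4.82 ± 0.23 in Th2, adjusted p = 4.04e-09 and 9.04e-11). Itga6 and Itgb7 also fell in both cultures, Itga6 by 1.75 in Th1 and 2.51 in Th2 and Itgb7 by 0.82 and 1.24 on the log2 scale. Both LFA-1 genes rose in Th1 and fell in Th2. Itgal had 1734 and 1653 CPM in Th1, 612 and 543 CPM in Th2 and 903 and 886 CPM in naive WT libraries. Itgb2 had 1029.9 and 984 CPM in Th1, 578 and 511 CPM in Th2 and 689 and 685 CPM in naive WT libraries, and its call in Th2 was lost without WT Th2 replicate 2 (adjusted p = 0.0148 and 0.127). Itgb3 rose in Th2, to 677 and 624 CPM in WT Th2 libraries against 226 and 227 CPM in WT naive libraries (log2 fold change 1.52 ± 0.18, adjusted p = 2.29e-06). In Th1 its log2 fold change against naive cells was -0.08 ± 0.18 (adjusted p = 0.725).

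Set directly against each other, WT Th1 and WT Th2 cultures differed in 8 of the 10 subunits, 6 higher in Th1 and 2 lower, beside 53.3% of all genes, 26% higher and 27.3% lower. Itgae and Itgb3 were the 2 lower in Th1. Itgae had 8.66 and 11.003 CPM in WT Th1 and 45.3 and 41.7 CPM in WT Th2 libraries (log2 fold change -2.14 ± 0.23, adjusted p = 1.29e-06), and Itgb3 had 224 and 205 CPM against 677 and 624 CPM (-1.60 ± 0.18, adjusted p = 3.19e-06). Itgb7, higher in Th1 by 0.42 ± 0.14, was not called without WT Th1 replicate 2 or WT Th2 replicate 2 (adjusted p = 0.059 and 0.11). Itgb1, at 193 and 195 CPM in Th1 and 168 and 154 CPM in Th2, missed the threshold (0.27 ± 0.12, adjusted p = 0.0624) and passed it once libraries were blocked by replicate number (adjusted p = 0.0319). In the separate libraries with SGC0649, 9 of the 10 were called between Th1 and Th2, 7 higher and 2 lower, and the 2 lower were again Itgae and Itgb3 (48.4% of all genes called, 24.3% higher and 24.1% lower).

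**Figure D1:**
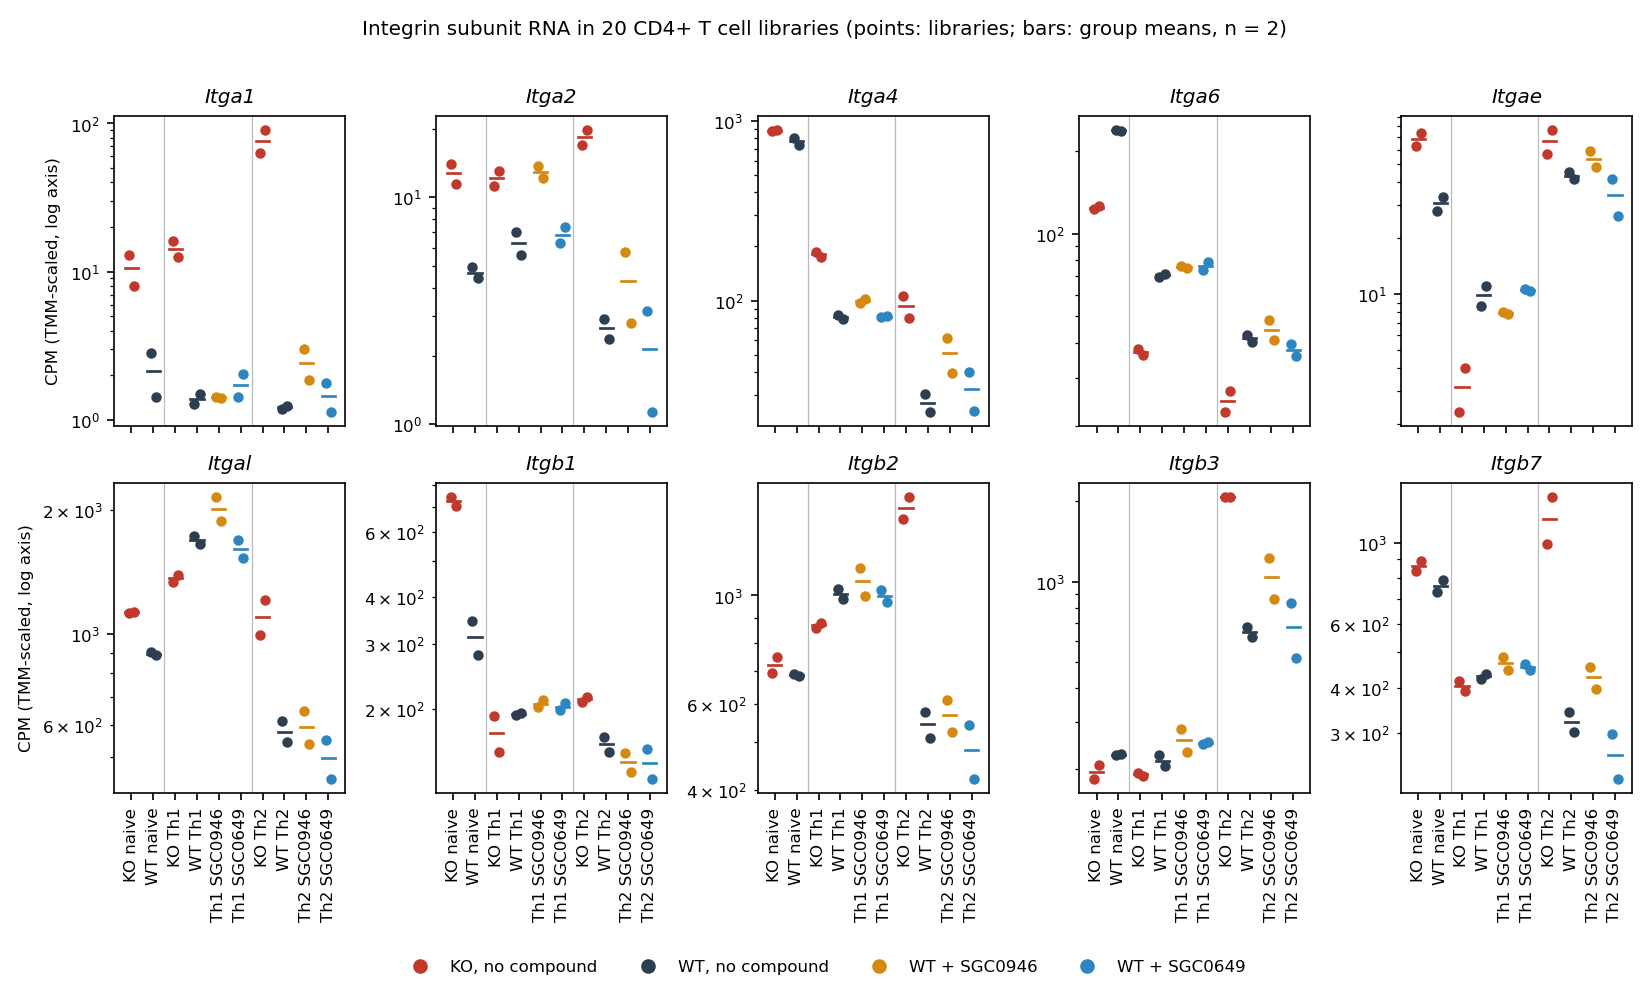
TMM-scaled CPM of the 10 subunits on a log axis in all 20 libraries, with a bar at each group's mean (n = 2) and grey lines between naive, Th1 and Th2 groups. KO Th2 libraries stand far above WT Th2 libraries for Itga1 (62.8 and 90.6 against 1.19 and 1.24 CPM), Itgb2, Itgb3 and Itgb7, while KO libraries lie below WT libraries for Itga6 in all 3 conditions.

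Deletion of Dot1l altered 6 of the 10 subunits in naive cells, 6 in Th1 cultures and all 10 in Th2 cultures. In KO naive cells Itga1, Itga2, Itgae, Itgal and Itgb1 rose and Itga6 fell, beside 28.4% of all genes, 16% higher and 12.4% lower. In KO Th1 cultures Itga1, Itga2 and Itga4 rose and Itga6, Itgae and Itgal fell, beside 50.6% of all genes, 24.8% higher and 25.8% lower. In KO Th2 cultures 9 subunits rose and Itga6 fell, beside 53.4% of all genes, 26.5% higher and 26.9% lower. The median log2 fold change over the 10 subunits was 0.27 in naive cells, -0.17 in Th1 and 1.57 in Th2, beside medians of 0.01, 0.01 and -0.01 over all genes tested.

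**Figure D2:**
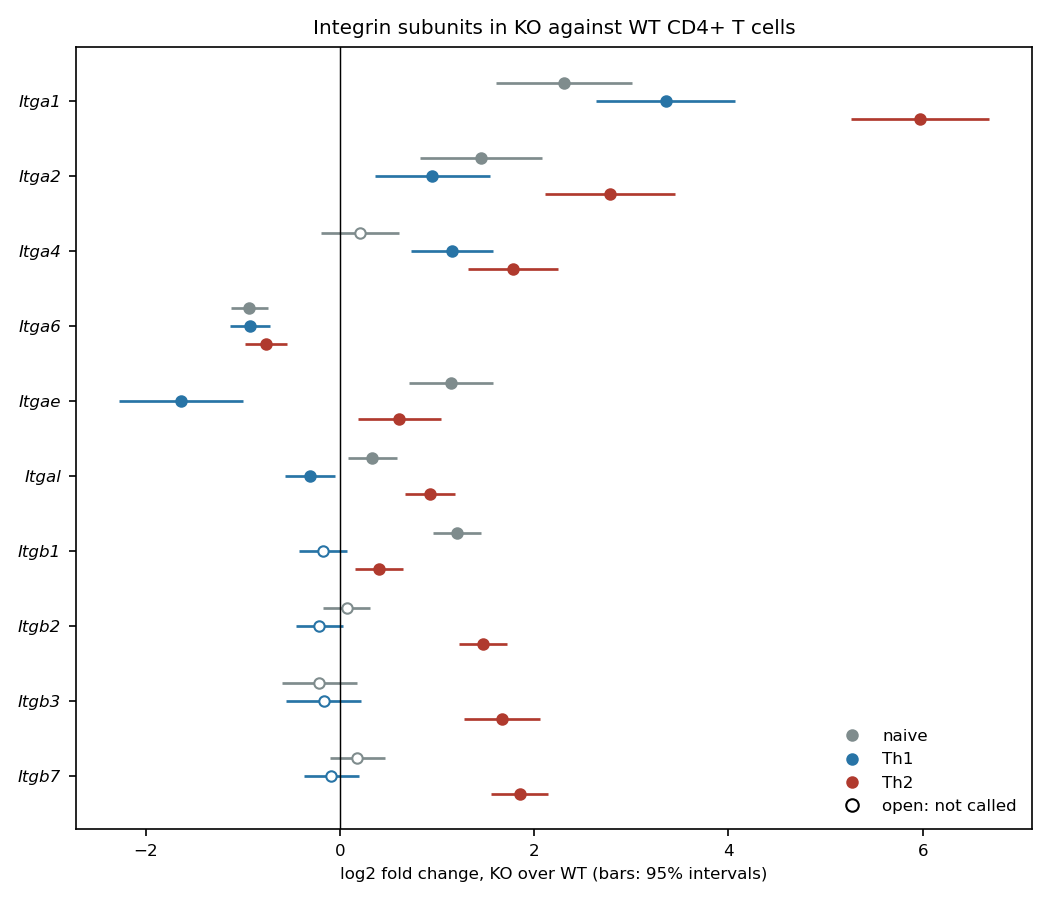
Log2 fold change of KO over WT with 95% intervals for each subunit in naive cells, Th1 and Th2 cultures; open points were not called. Itga1 lies furthest right in each condition (2.31, 3.36 and 5.97), Itga6 lies left of 0 in all 3 (-0.93, -0.92 and -0.76), and Itgae lies on opposite sides of 0 in Th1 (-1.63) and in the other conditions (1.15 and 0.61).

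Itga1, the α chain of the collagen receptor α1β1, changed by the greatest fold of the 10 genes. It had 13.04 and 7.999 CPM in KO naive libraries, against 2.85 and 1.44 CPM in WT naive libraries. KO Th1 libraries had 16.02 and 12.5 CPM, against 1.27 and 1.49 CPM in WT Th1 libraries. KO Th2 libraries had 62.8 and 90.6 CPM, against 1.19 and 1.24 CPM in WT Th2 libraries. Every KO library was above every WT library of its condition. With 2 libraries per group this says little alone, since groups also stood apart where no change was called. Itgb2 in naive cells did so at 0.07 ± 0.11 (adjusted p = 0.685). The log2 fold changes of Itga1 were 2.31 ± 0.33, 3.36 ± 0.34 and 5.97 ± 0.33 in naive, Th1 and Th2 cells (adjusted p = 0.000115, 6.99e-07 and 4.65e-10). The WT Th2 level rests on 25 counts over both libraries, against 1558 counts in KO Th2, and the WT Th1 level on 33 counts against 362 in KO Th1. Per kilobase, Itga1 stood at 12.8 CPM in KO Th2 cells, where its libraries overlapped those of Itgae at 14.6, and was the lowest of the 10 in WT Th2 cells at 0.203.

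Itga1 lies on chromosome 13 from 114958079 to 115101964 (GRCm38, minus strand), and Itga2, the α chain of the other main collagen receptor, is its neighbour from 114835916 to 114932041 on the same strand. Itga2 had 14.03 and 11.5 CPM in KO naive libraries, against 4.91 and 4.40 CPM in WT naive libraries. In Th1 it had 11.2 and 13.1 CPM in KO, against 7.05 and 5.54 CPM in WT libraries, and in Th2 it had 16.98 and 19.8 CPM in KO, against 2.92 and 2.38 CPM in WT libraries. The groups did not overlap in any condition. The log2 fold changes were 1.45 ± 0.30, 0.95 ± 0.28 and 2.78 ± 0.32 (adjusted p = 0.00195, 0.00985 and 1.53e-06), and in Th1 the gene missed the threshold without WT Th1 replicate 2 or KO Th1 replicate 2 (adjusted p = 0.0944 and 0.0661). Pelo, a gene that lies inside Itga1 on the same strand, had a log2 fold change of 0.15 ± 0.17 in KO Th2 (adjusted p = 0.469) and was called higher in KO Th1 (0.47 ± 0.17, adjusted p = 0.0294).

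Since the neighbours Itga1 and Itga2 were both higher in KO cells of all 3 conditions, their promoters are shown, from 250 bases before to 50 bases after the gene start as RefSeq gives it, together with that of Itga4, which fell most in WT culture and was higher in KO cultures. The sequences are those of RefSeq on GRCm38.p6, on the gene's strand. Itga1 is at chr13:115101915-115102214 on the minus strand, Itga2 at chr13:114932051-114932350 on the minus strand and Itga4 at chr2:79255176-79255475 on the plus strand. The RefSeq start of Itga2 lies upstream of the start in the annotation used for counting, so that window holds no base of the counted gene. Capitals mark a match to 1 of 4 motifs searched on both strands, TGTGGT for RUNX factors, AGATAA for GATA factors, AGGTGT for T-box factors and CCGGAA for ETS factors.
Itga1: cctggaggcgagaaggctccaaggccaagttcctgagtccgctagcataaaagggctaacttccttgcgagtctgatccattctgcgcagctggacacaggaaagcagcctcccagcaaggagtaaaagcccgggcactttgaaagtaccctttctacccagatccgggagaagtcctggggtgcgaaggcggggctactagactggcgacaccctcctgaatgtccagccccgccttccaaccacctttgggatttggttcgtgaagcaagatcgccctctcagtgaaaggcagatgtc
Itga2: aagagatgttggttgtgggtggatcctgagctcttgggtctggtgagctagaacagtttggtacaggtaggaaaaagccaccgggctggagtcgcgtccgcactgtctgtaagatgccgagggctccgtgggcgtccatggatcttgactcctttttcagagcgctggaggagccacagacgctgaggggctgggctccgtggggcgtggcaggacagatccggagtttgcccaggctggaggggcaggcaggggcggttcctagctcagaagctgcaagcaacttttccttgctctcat
Itga4: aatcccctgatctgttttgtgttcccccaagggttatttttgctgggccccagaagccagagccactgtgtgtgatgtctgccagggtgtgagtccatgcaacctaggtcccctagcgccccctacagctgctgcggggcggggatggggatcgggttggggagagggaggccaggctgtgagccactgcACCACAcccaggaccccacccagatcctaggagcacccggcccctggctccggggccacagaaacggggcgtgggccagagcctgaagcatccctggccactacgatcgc

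The Itga4 window held 1 match to the RUNX motif, read here as its reverse complement ACCACA, and the Itga1 and Itga2 windows held none of the 4 motifs. Among 32851 promoters of the same length, 16.8% held the RUNX motif, 11.2% the GATA motif, 13.7% the T-box motif and 14.9% the ETS motif. A RefSeq promoter was found for 5 of the 10 subunits. Of the others, Itgb7 held none of the 4 motifs and Itgb1 held 1 match to the ETS motif.

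Itga4 (chromosome 2, 79255426 to 79333123, plus strand) rose in KO cells of both cultures. In Th1 it had 187 and 175 CPM in KO, against 83.6 and 78.7 CPM in WT libraries, and in Th2 it had 106 and 80.2 CPM in KO, against 30.1 and 23.98 CPM in WT libraries. The KO and WT libraries were apart in both cultures, and the log2 fold changes were 1.16 ± 0.20 and 1.78 ± 0.22 (adjusted p = 0.000239 and 7.14e-06). In naive cells it had 875 and 892 CPM in KO, against 801 and 735 CPM in WT libraries, which did not pass the test (0.20 ± 0.19, adjusted p = 0.454). Cerkl overlaps Itga4 on the opposite strand, and the counting used strand. It had 2.98 to 4.42 CPM in KO Th2 and 0.724 to 1.37 CPM in WT Th2 libraries (1.78 ± 0.35, adjusted p = 0.000404), a log2 fold change like that of Itga4, and did not follow Itga4 in Th1 (-0.0033 ± 0.27, adjusted p = 1).

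Of the β chains that pair with α4, Itgb1 (chromosome 8, 128685654 to 128733200, plus strand) rose mainly before culture. It had 744 and 704 CPM in KO naive, against 346 and 280.0 CPM in WT naive libraries (log2 fold change 1.21 ± 0.12, adjusted p = 2.77e-06). In Th1 it had 192 and 154 CPM in KO, against 193 and 195 CPM in WT libraries (-0.17 ± 0.12, adjusted p = 0.242), and without KO Th1 replicate 1 it was called lower (adjusted p = 0.0462). In Th2 it had 209 and 216 CPM in KO, against 168 and 154 CPM in WT libraries (0.40 ± 0.12, adjusted p = 0.00869), a call lost without WT Th2 replicate 2 (adjusted p = 0.0676).

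Itgb7 (chromosome 15, 102215995 to 102231935, minus strand), the β chain of the gut-homing receptor α4β7 and of αEβ7, rose in Th2. It had 989.9 and 1335 CPM in KO Th2, against 342 and 302 CPM in WT Th2 libraries (1.85 ± 0.14, adjusted p = 1.15e-08). KO Th2 libraries were thus above the level of WT naive cells, which had 733 and 790.1 CPM. In naive cells the change was 0.18 ± 0.13 and in Th1 cultures -0.09 ± 0.13, and neither passed (adjusted p = 0.339 and 0.615).

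Itgae (chromosome 11, 73090583 to 73147446, plus strand), which encodes αE, changed in opposite directions. It rose in KO naive cells, at 63.0 and 73.3 CPM in KO against 28.1 and 33.4 CPM in WT libraries (1.15 ± 0.20, adjusted p = 0.000855). It fell in KO Th1 cultures, at 2.32 and 4.03 CPM in KO against 8.66 and 11.003 CPM in WT libraries (-1.63 ± 0.30, adjusted p = 0.000349). In Th2 it had 56.8 and 76.6 CPM in KO against 45.3 and 41.7 CPM in WT libraries (0.61 ± 0.20, adjusted p = 0.0173), and that call was lost without WT Th2 replicate 2 or KO Th2 replicate 2 (adjusted p = 0.0844 and 0.18). Cells other than conventional CD4+ T cells carry this chain, so their markers were read beside it. Cd8a stood at 100.3 to 231 CPM in KO Th2 libraries and 5.20 to 6.93 CPM in WT Th2 libraries, and the 4 CD8 T cell markers, all called higher there, summed to 143 to 287 CPM in KO and 14.9 to 18.7 CPM in WT libraries. In bulk RNA, more cells of a type and more RNA per cell cannot be told apart. Foxp3, which defines regulatory T cells, was lower in KO cells of all 3 conditions, at 56.9 to 57.0 CPM in KO and 99.0 to 108 CPM in WT naive libraries, at 1.13 to 1.47 CPM in KO and 24.5 to 24.9 CPM in WT Th1 libraries, and at 1.31 to 3.24 CPM in KO and 11.5 to 15.2 CPM in WT Th2 libraries. The 9 regulatory T cell genes as a list were summed as well, and in both cultures the sum was higher in KO. In KO naive cells 1 was called higher and 5 lower (28.4% of all genes called). Of the 9, 3 were higher and 5 lower in KO Th1 (50.6%), and 5 higher and 3 lower in KO Th2 (53.4%). They summed to 804 to 826 CPM in KO and 1022 to 1035 CPM in WT naive libraries, 4524 to 4759 CPM in KO and 3440 to 3519 CPM in WT Th1 libraries, and 9000.3 to 11066 CPM in KO and 5199 to 5281 CPM in WT Th2 libraries. In WT cultures Il2ra alone made up most of the sums, at a mean of 2111 CPM in WT Th1 and 3163 CPM in WT Th2 libraries. Ctla4 averaged 2302 CPM in KO Th2 and 1122 CPM in WT Th2 libraries. How much each gene added to the higher KO sums was not tested. The part of these cells in the Itgae values was not tested.

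Itga6 (chromosome 2, 71745616 to 71858416, plus strand), the laminin-binding chain, was the 1 subunit lower in KO cells of all 3 conditions. It had 122 and 126 CPM in KO naive, against 238 and 236 CPM in WT naive libraries, 38.2 and 36.1 CPM in KO Th1, against 69.4 and 71.6 CPM in WT Th1 libraries, and 22.5 and 26.9 CPM in KO Th2, against 43.0 and 40.4 CPM in WT Th2 libraries. No KO library reached the lowest WT library of its condition. The log2 fold changes were -0.93 ± 0.09, -0.92 ± 0.10 and -0.76 ± 0.10 (adjusted p = 2.7e-06, 7.92e-07 and 9.13e-06), and all 3 held in every alternative run.

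The LFA-1 genes, Itgal (chromosome 7, 127296260 to 127335138, plus strand) and Itgb2 (chromosome 10, 77530252 to 77565708, plus strand), rose together in KO Th2 cells. Itgb2, which is also the β chain of the CD11 receptors of myeloid cells, had 1432 and 1592 CPM in KO Th2, against 578 and 511 CPM in WT Th2 libraries (1.47 ± 0.12, adjusted p = 1.99e-08). Itgal had 991 and 1209 CPM in KO Th2, against 612 and 543 CPM in WT Th2 libraries (0.93 ± 0.12, adjusted p = 7.03e-06). Neither pair of groups overlapped. In naive cells Itgal was higher in KO by 0.34 ± 0.12 and in Th1 lower by 0.31 ± 0.12, both close to the threshold (adjusted p = 0.0479 and 0.0418). Both calls were lost when counts were scaled by RLE (adjusted p = 0.0501 and 0.0545) and when any 1 of the 4 libraries was left out, with adjusted p of 0.103 to 0.178 in naive cells and 0.0662 to 0.145 in Th1. Itgb2 did not pass in either condition (0.07 ± 0.11 in naive and -0.21 ± 0.11 in Th1, adjusted p = 0.685 and 0.132).

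Itgb3 (chromosome 11, 104608000 to 104670476, plus strand) rose in KO Th2 cells alone among the 3 conditions tested. It had 2065 and 2069 CPM in KO Th2, against 677 and 624 CPM in WT Th2 libraries (1.67 ± 0.18, adjusted p = 1.92e-06), so the gene already highest in Th2 among the WT conditions was higher still. In naive cells it had 183 and 207 CPM in KO, against 226 and 227 CPM in WT libraries, and in Th1 194 and 189 CPM in KO, against 224 and 205 CPM in WT libraries (-0.21 ± 0.18 and -0.17 ± 0.18, adjusted p = 0.415 and 0.471). Its partner chain Itgav rose less in KO Th2 cells, with 264 to 304 CPM in KO and 197 to 198 CPM in WT libraries (0.52 ± 0.10, adjusted p = 0.000289). The alternative partner Itga2b, a platelet and mast cell gene, had 16.6 to 19.95 CPM in KO Th2 and 18.3 to 22.9 CPM in WT Th2 libraries (-0.18 ± 0.25, adjusted p = 0.569).

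Platelets, mast cells and basophils carry Itga2 or Itgb3, so their marker lists were summed in each library, beside lists for NK, myeloid, B and red blood cells. Shares of all genes called were 28.4% in KO naive cells, 50.6% in KO Th1 and 53.4% in KO Th2. In Th2 cultures the 11 platelet and megakaryocyte genes summed to 26.8 to 35.2 CPM in KO and 31.01 to 35.4 CPM in WT libraries, and the 13 mast cell and basophil genes to 104 to 168 CPM in KO and 92.6 to 98.7 CPM in WT libraries. In KO Th2, 1 of 12 tested mast cell and basophil genes was called higher, and Tpsab1 was at 0 in both Th2 groups. In Th1 cultures 12 of 12 tested mast cell and basophil genes and 8 of 10 tested platelet genes were called higher in KO, the mast cell and basophil genes at 1051 to 2417 CPM in KO and 155 to 204 CPM in WT libraries, the platelet genes at 83.8 to 94.9 CPM in KO and 7.28 to 8.32 CPM in WT libraries. Tubb1, Clec1b, Gp6 and Treml1 were at 0 in WT Th1. Of the members that these cells carry, Itga2 was higher in KO Th1 and Itgb3 was not called there. In naive cells 9 of 13 tested myeloid genes were higher in KO, with sums of 580 to 1103 CPM in KO and 313 to 418 CPM in WT libraries. B cell genes there summed to 56.2 to 90.9 CPM in KO and 21.6 to 27.6 CPM in WT libraries, and erythroid genes to 323 to 1340.3 CPM in KO, highest in replicate 1, and 200.1 to 314 CPM in WT libraries. Without KO naive replicate 1, Itga1, Itga2, Itga6, Itgae and Itgb1 were still called. The mast cell and basophil genes there summed to 84.3 to 171 CPM in KO and 37.0 to 69.9 CPM in WT libraries, with 4 of 12 called higher. NK cells carry Itga1 and Itga2, and of their 7 marker genes 4 were called higher in KO naive cells, 3 higher and 1 lower in KO Th1, and 3 higher in KO Th2. The sums were 135 to 179 CPM in KO and 73.1 to 105 CPM in WT naive libraries, 1245 to 2182 CPM in KO and 190 to 214 CPM in WT Th1 libraries, and 20281 to 22325 CPM in KO and 513 to 547 CPM in WT Th2 libraries. Most of the Th1 sums was Gzma, at a mean of 1653 CPM in KO and 136 CPM in WT Th1 libraries. In Th2, Gzma made up 20238 to 22258 CPM in KO and 491 to 529.98 CPM in WT libraries, and the other genes called were Eomes (2.17 ± 0.25) and Klrc2 (1.79 ± 0.50). Ncr1, which marks NK cells, was called higher in KO naive and KO Th1 cells (adjusted p = 0.0374 and 0.0147) and not called in KO Th2, at 0.324 to 0.350 CPM in KO and 0.821 to 0.827 CPM in WT libraries. The 14 myeloid and dendritic genes, which include Itgax and Itgam, summed to 156 to 260 CPM in KO Th2 and 35.4 to 75.5 CPM in WT Th2 libraries, with Fcgr1 and Siglech at 0 in both. How far any of these cells contributed to the subunit levels was not tested.

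Whether the deletion acted differently by condition was tested as the difference between the KO effects. Between Th1 and Th2, 8 of the 10 subunits differed, all with the lower effect in Th1, beside 46.2% of all genes, 22% higher and 24.3% lower. Itga1 (-2.61 ± 0.56), Itgae (-2.25 ± 0.36), Itgb7 (-1.94 ± 0.19), Itgb3 (-1.83 ± 0.26), Itga2 (-1.83 ± 0.43), Itgb2 (-1.69 ± 0.16), Itgal (-1.24 ± 0.17) and Itgb1 (-0.57 ± 0.17) made up the 8. Itga6 differed by -0.16 ± 0.14 (95% interval -0.46 to 0.13, adjusted p = 0.37). Itga4 differed by -0.63 ± 0.29 (adjusted p = 0.0928), and was called with the block by replicate number (adjusted p = 0.0359). Against naive cells, the KO effect differed for 8 subunits in Th2 (7 higher and Itgb1 lower) and for 4 in Th1 (Itga4 higher, Itgae, Itgal and Itgb1 lower). Of all genes tested, 35.7% were called in the Th2 difference, 17% higher and 18.7% lower, and 27.5% in the Th1 difference, 10.7% higher and 16.9% lower. The 3 differences share the KO and WT libraries of each condition.

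The contrast between the cultures was read within KO cells as well. There 9 of the 10 subunits differed between Th1 and Th2, 3 higher and 6 lower in Th1, beside 59.8% of all genes, 28.1% higher and 31.8% lower. The calls of Itgal (0.31 ± 0.12, adjusted p = 0.0344) and Itgb1 (-0.30 ± 0.12, adjusted p = 0.0365) depended on single libraries. Itgal stood at 0.18 without KO Th2 replicate 1, and Itgb1 at -0.17 without KO Th1 replicate 2. Itgb1 was also not called with the contrast's own libraries alone (adjusted p = 0.106). Itgb2 had 859 and 879 CPM in KO Th1 and 1432 and 1592 CPM in KO Th2 libraries (-0.80 ± 0.11, adjusted p = 1.53e-05), while in WT cells it was higher in Th1, at 1029.9 and 984 CPM in WT Th1 and 578 and 511 CPM in WT Th2 libraries (0.89 ± 0.12, adjusted p = 6.3e-06). Itgb7 likewise had 418 and 391 CPM in KO Th1 and 989.9 and 1335 CPM in KO Th2 libraries (-1.52 ± 0.14, adjusted p = 9.76e-08). Itgae and Itgb3 kept the direction of WT cells with a wider gap, -4.39 ± 0.26 and -3.43 ± 0.20 in KO cells.

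The DOT1L inhibitor was compared with its control compound at the same dose and time in WT cells. In Th1 cultures none of the 10 subunits was called, beside 0.467% of all genes, 0.405% higher and 0.0612% lower. DESeq2 and limma voom also called 0 of them, and 2 had an unadjusted p under 0.05 in edgeR. Those 2 were Itga2, at 13.7 and 12.1 CPM with SGC0946 and 6.28 and 7.40 CPM with SGC0649 (0.92 ± 0.28, adjusted p = 0.2), and Itgal, at 2158 and 1884 CPM with SGC0946 and 1691 and 1528 CPM with SGC0649 (0.33 ± 0.12, adjusted p = 0.309). Neither pair of groups overlapped, and those of Itga4 and Itgae did not overlap either (adjusted p = 0.713 and 0.694). For Itga1, Itga6, Itgb1, Itgb2, Itgb3 and Itgb7 the groups overlapped. With 2 libraries per group, a gap between groups says little alone, and its share over all genes was not taken. When only the libraries of this contrast were fitted, 3 were called higher, Itga2, Itga4 and Itgal (adjusted p = 0.00461, 0.0289 and 0.0169). The 95% interval for Itga1 ran from -1.29 to 0.71 and that for Itga6 from -0.21 to 0.18.

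In Th2 cultures Itgb7 and Itgb3 rose with the inhibitor, beside 7.96% of all genes, 5.45% higher and 2.51% lower. Itgb7 had 456 and 398 CPM with SGC0946, against 298 and 225 CPM with SGC0649 (0.71 ± 0.14, adjusted p = 0.00504), and was not called when the libraries of this contrast were fitted alone (adjusted p = 0.161). Itgb3 had 1222 and 864 CPM with SGC0946, against 831 and 519.8 CPM with SGC0649 (0.63 ± 0.18, adjusted p = 0.043), and replicate 2 was the lower library in both groups. The Itgb3 call was lost without SGC0649 replicate 2 or SGC0946 replicate 1 (adjusted p = 0.286 and 0.385), with no filter on low counts (0.0813) and with the contrast's own libraries alone (0.369). Itga4 had 61.9 and 39.6 CPM with SGC0946, against 39.8 and 24.2 CPM with SGC0649 (0.66 ± 0.22, adjusted p = 0.078), and passed when blocked by replicate number (adjusted p = 0.0239) and by DESeq2 (adjusted p = 0.0159). Itgae, at 59.1 and 48.2 CPM with SGC0946 and 41.9 and 26.4 CPM with SGC0649, missed the threshold (0.65 ± 0.20, adjusted p = 0.0647) and passed it by DESeq2 and voom (0.0373 and 0.0411). The median over the 10 subunits was 0.64, beside 0.01 over all genes, and 7 of the 10 were called without SGC0649 replicate 1.

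**Figure D3:**
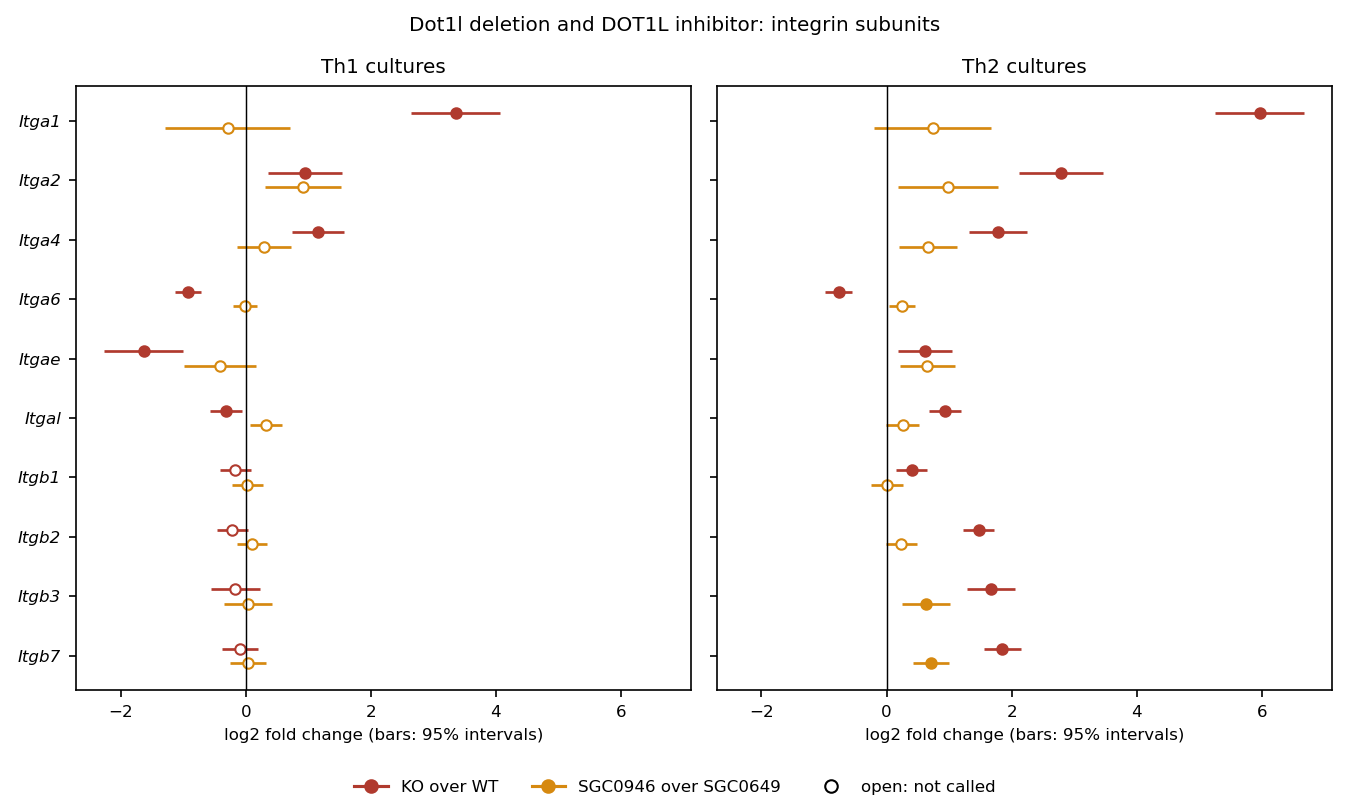
Log2 fold changes with 95% intervals of KO over WT and of SGC0946 over SGC0649 in Th1 and Th2 cultures; open points were not called. The 2 effects lie side by side for Itga2 in Th1 (0.95 and 0.92) and Itgae in Th2 (0.61 and 0.65), and far apart for Itga1 in Th2 (5.97 and 0.74).

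The deletion and the inhibitor, measured in separate libraries, were then tested against each other. In Th1 the KO effect exceeded the inhibitor effect for Itga1 (by 3.65 ± 0.60) and Itga4 (by 0.86 ± 0.28) and was lower for Itga6 (-0.91 ± 0.13), Itgae (-1.23 ± 0.41) and Itgal (-0.64 ± 0.17), beside 30.7% of all genes, 12.8% higher and 17.9% lower. Itga4 missed the threshold on leaving out any 1 of the 8 libraries (adjusted p = 0.0549 to 0.101) and Itgae on leaving out 6 of them (0.0513 to 0.133). In Th2 the KO effect was higher for 7 subunits, with Itga1 at 5.23 ± 0.62, Itga2 at 1.79 ± 0.51, Itgb2 at 1.24 ± 0.16, Itgb7 at 1.14 ± 0.19, Itga4 at 1.12 ± 0.31, Itgb3 at 1.04 ± 0.25 and Itgal at 0.67 ± 0.17, and lower for Itga6 (-1.01 ± 0.14), beside 32% of all genes, 15% higher and 17% lower. Without SGC0649 replicate 1, Itga2 differed by 0.92 and Itga4 by 0.75, and neither was called (adjusted p = 0.246 and 0.0685). Neither was called with the contrast's own libraries alone (0.0721 and 0.0675), nor Itga4 without WT Th2 replicate 2 (0.0524). Itgae differed by -0.04 ± 0.29, with a 95% interval from -0.65 to 0.57. Itgb1 differed by 0.39 ± 0.17 (adjusted p = 0.0835), and by an adjusted p of 0.0452 with the block. Itga6, lower in KO cells, had 48.4 and 41.2 CPM with SGC0946 and 39.8 and 35.8 CPM with SGC0649 in Th2 (0.24 ± 0.10, adjusted p = 0.145).

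The control compound was also set against no compound in WT cultures. With SGC0649, 0 subunits were called in Th1, where 0.0153% of all genes were, all higher, and 0 had an unadjusted p under 0.05 in edgeR. In Th2 0 were called, beside 0.673% of all genes, 0.245% higher and 0.428% lower, and 1, Itgb7, had an unadjusted p under 0.05. DESeq2 and limma voom called 0 in both cultures. Itgb7 had 298 and 225 CPM with SGC0649, against 342 and 302 CPM without compound in Th2 (-0.30 ± 0.14, adjusted p = 0.218). Without SGC0649 replicate 1 of Th2, Itgae, Itgb2 and Itgb7 were called lower with the compound (adjusted p = 0.0253, 0.0402 and 0.0189).

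Because α and β chains reach the surface only in pairs, the ratio of partner RNAs was taken per kilobase in each library. The ratio of Itga4 to Itgb1 was 0.343 and 0.370 in KO naive, against 0.675 and 0.766 in WT naive libraries. It was 0.285 and 0.331 in KO Th1, against 0.126 and 0.118 in WT Th1 libraries, and 0.148 and 0.108 in KO Th2, against 0.0522 and 0.0455 in WT Th2 libraries. The KO libraries thus lay below WT libraries before culture and above them after it. The ratio of Itgae to Itgb7 was 0.0451 and 0.0493 in KO naive, against 0.0229 and 0.0253 in WT naive libraries, 0.00332 and 0.00616 in KO Th1, against 0.0123 and 0.0151 in WT Th1 libraries, and 0.0344 and 0.0344 in KO Th2, against 0.0792 and 0.0826 in WT Th2 libraries, since Itgb7 rose more than Itgae there. The ratio of Itgal to Itgb2 was 0.753 and 0.702 in KO naive, against 0.609 and 0.601 in WT naive libraries, 0.725 and 0.736 in KO Th1, against 0.782 and 0.781 in WT Th1 libraries, and 0.322 and 0.353 in KO Th2, against 0.492 and 0.494 in WT Th2 libraries. No test was run on these ratios, and surface protein was not analysed here.

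**Figure D4:**
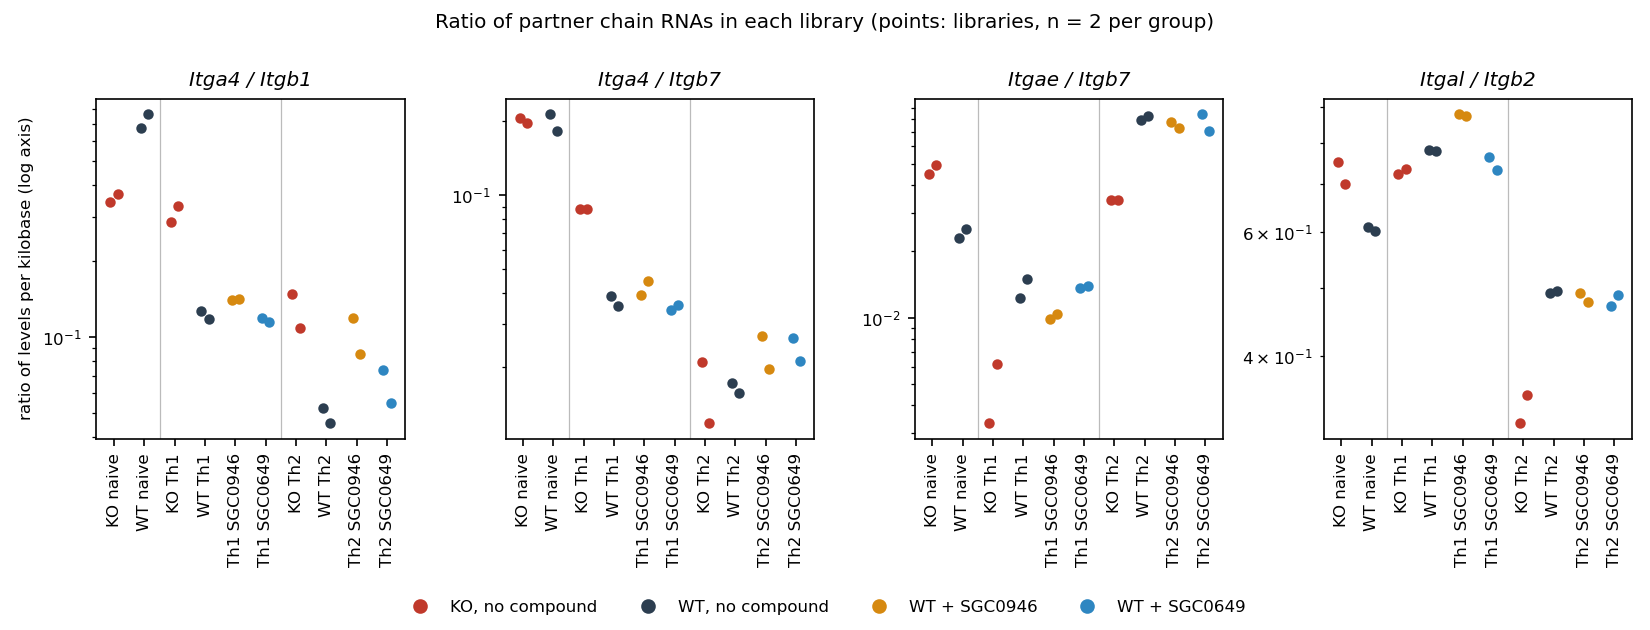
Ratio of partner chain RNAs, each as CPM per kilobase of exon, on log axes in all 20 libraries (n = 2 per group). For Itga4 over Itgb1 the KO naive libraries (0.343 and 0.370) lie below WT naive libraries (0.675 and 0.766), and the KO Th1 and KO Th2 libraries lie above WT libraries of the same culture.

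Other genes of the pathway were read from lists of 4 roles. Their counts are to be read beside the share of all genes tested. In KO naive cells 28.4% of all genes were called, 16% higher and 12.4% lower. In KO Th1 the share was 50.6%, 24.8% higher and 25.8% lower. In KO Th2 it was 53.4%, 26.5% higher and 26.9% lower. Of 14 other integrin subunits tested, 4 rose and 1 fell in KO naive cells, 5 rose and 4 fell in KO Th1, and 7 rose and 4 fell in KO Th2 (medians 0.45, 0.32 and 0.91, beside 0.01, 0.01 and -0.01 over all genes). Itgax, which encodes CD11c and pairs with β2, rose in all 3, at 59.6 to 81.0 CPM in KO Th2 and 1.34 to 1.73 CPM in WT Th2 libraries (5.49 ± 0.34, adjusted p = 2.59e-09). Itgam, which encodes CD11b and also pairs with β2, had 13.2 to 27.9 CPM in KO Th2 and 0.517 to 1.73 CPM in WT Th2 libraries (4.13 ± 0.56, adjusted p = 2.54e-05). Itga7, a laminin-binding chain, fell to 15.1 to 17.2 CPM in KO Th1, against 195 to 209 CPM in WT Th1 libraries (-3.64 ± 0.31, adjusted p = 4.93e-07). Itga2b rose in KO Th1, at 51.0 to 70.3 CPM in KO and 6.87 to 6.88 CPM in WT libraries (3.14 ± 0.26, adjusted p = 1.34e-07), beside the platelet and mast cell genes given above.

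Of 30 tested genes that activate integrins or tie them to the cytoskeleton, 5 rose and 7 fell in KO naive cells, 3 rose and 14 fell in KO Th1, and 15 rose and 6 fell in KO Th2 (medians -0.02, -0.29 and 0.22). Beside them, 28.4%, 50.6% and 53.4% of all genes were called. In KO Th2, Flna, an actin crosslinker that binds β tails, rose by 1.41 ± 0.09 (adjusted p = 1.61e-09), and Rasgrp2, which activates Rap1 upstream of integrins, rose by 1.48 ± 0.16 (adjusted p = 7.32e-07). Ptk2, which encodes focal adhesion kinase, fell by 1.81 there (adjusted p = 7.44e-07). In KO Th1, Fyb, an adaptor from the T cell receptor to integrins, fell by 1.53 and Stk4, a kinase in the Rap1 pathway of LFA-1 activation, by 1.20 (adjusted p = 1.45e-05 and 2.19e-08). With the inhibitor, 3 of the 30 rose in Th2, Rasgrp2 (0.74 ± 0.16), Skap1 (0.39 ± 0.11) and Flna (0.33 ± 0.09), and 0 of 30 were called in Th1. Over all genes, 5.45% were called higher with the inhibitor in Th2 and 0.467% were called in Th1. Of 18 ligand genes tested, 8 rose and 0 fell in KO naive cells, 9 rose and 2 fell in KO Th1, and 7 rose and 1 fell in KO Th2 (medians 0.98, 1.15 and 0.43). The 1 that fell in KO Th2 was Fn1, the gene of fibronectin (-2.95 ± 0.73, adjusted p = 0.00371). Vwf rose in KO Th1 by 6.46 ± 0.72 (adjusted p = 1.85e-06), from a WT mean of 0.042 CPM. Spp1, which encodes osteopontin, a ligand of αvβ3, rose in KO Th1 by 2.37 ± 0.26 and in KO Th2 by 1.41 ± 0.30 (adjusted p = 5.1e-06 and 0.00137). Cdh1, the gene of E-cadherin, the ligand of αEβ7, rose in KO naive cells by 2.52 ± 0.48, in KO Th1 by 2.09 ± 0.56 and in KO Th2 by 2.79 ± 0.49 (adjusted p = 0.00128, 0.00551 and 0.000153).

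The residence genes did not move one way. Of the 20, 11 rose and 1 fell in KO naive cells, 6 rose and 5 fell in KO Th1, and 9 rose and 7 fell in KO Th2 (medians 0.57, 0.11 and 0.33). The shares of all genes called were 28.4%, 50.6% and 53.4%. In KO Th2, Cxcr6, a chemokine receptor of resident T cells, had 1007 to 1197 CPM in KO and 127 to 135 CPM in WT libraries (3.07 ± 0.24, adjusted p = 1.1e-07), and Rgs1, which damps chemokine signals, rose by 2.08 ± 0.14. Cd69, which holds S1PR1 inside the cell, had 52.8 to 107 CPM in KO Th2 and 35.5 to 49.0 CPM in WT Th2 libraries (0.91 ± 0.25, adjusted p = 0.00723). Cd44, the hyaluronan receptor, fell by 2.35 in KO Th2 (adjusted p = 5.82e-07). Zfp683, which encodes the residence factor Hobit, fell by 2.23 in KO naive cells and by 1.33 in KO Th1 (adjusted p = 0.000107 and 0.00145) and rose by 1.01 in KO Th2 (adjusted p = 0.00503).

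Among the 12 genes of recirculation and egress, 3 rose and 5 fell in KO naive cells, 2 rose and 9 fell in KO Th1, and 4 rose and 5 fell in KO Th2 (medians -0.09, -1.31 and -0.35). Again, 28.4%, 50.6% and 53.4% of all genes were called. Ccr7, the lymph node homing chemokine receptor, fell in all 3 conditions, to 18.2 to 24.6 CPM in KO Th2 libraries, against 215 to 275 CPM in WT Th2 libraries. The log2 fold changes of Ccr7 were -1.29, -2.67 and -3.52 in naive, Th1 and Th2 cells (adjusted p = 1.97e-05, 3.33e-09 and 2.22e-10). Tcf7, which encodes a factor of naive and memory T cells, fell by 3.04 in KO Th1 and by 2.77 in KO Th2 (adjusted p = 6.92e-06 and 1.82e-05). Klf2, the factor that drives S1pr1, fell by 3.68 in KO Th1 (adjusted p = 1.03e-07) and had -0.40 ± 0.24 in KO Th2 (adjusted p = 0.185). Cx3cr1, a marker of circulating effector cells, rose in all 3 conditions, by 2.18, 3.57 and 5.20.

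**Figure D5:**
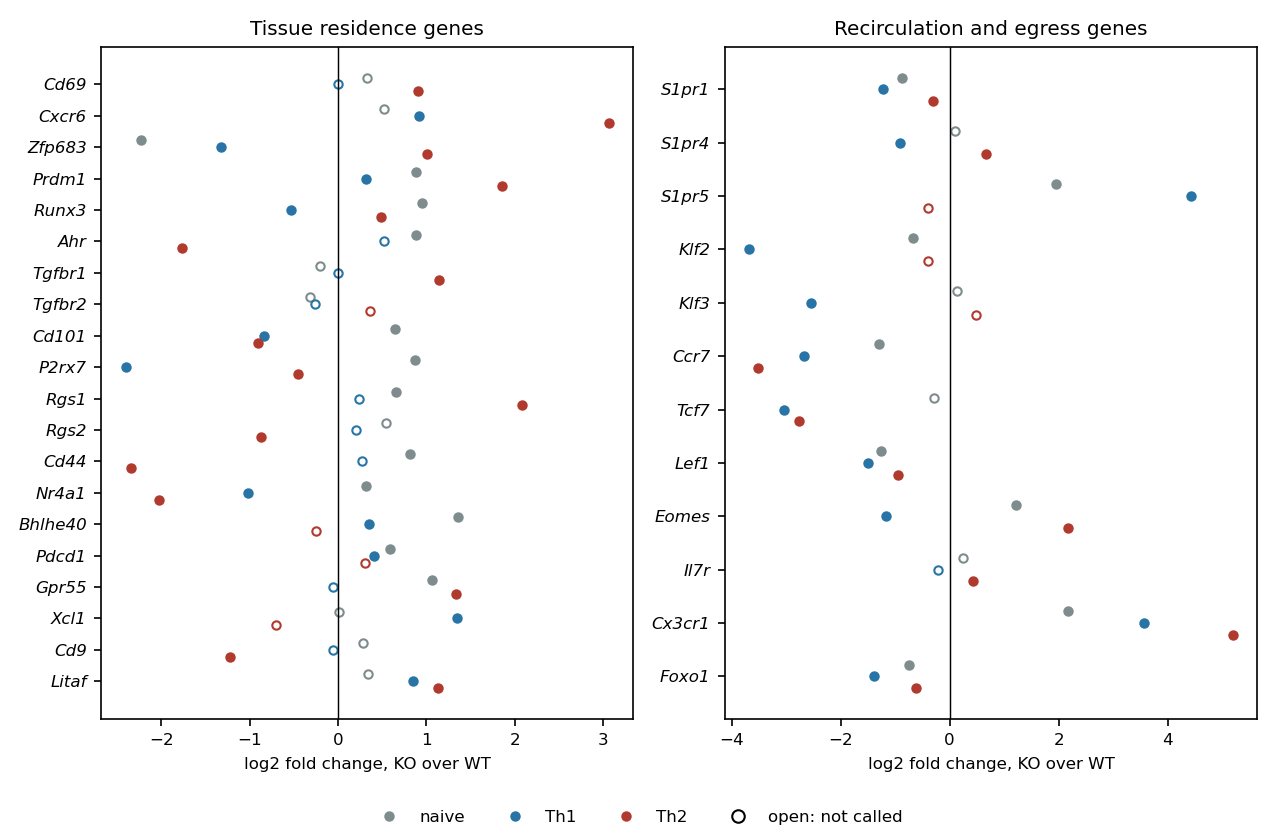
Log2 fold change of KO over WT for 20 tissue residence genes and 12 recirculation and egress genes in naive cells, Th1 and Th2 cultures; open points were not called. Ccr7 lies left of 0 in all 3 conditions (-3.52 in Th2) and Cxcr6 reaches 3.07 in Th2, while residence genes such as Cd44 (-2.35 in Th2) lie left of 0.

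With the inhibitor, the residence factor gene Prdm1, which encodes Blimp-1, rose in both cultures. It had 136 to 137 CPM with SGC0946 and 89.3 to 92.0 CPM with SGC0649 in Th1 (0.59 ± 0.11, adjusted p = 0.0277), and 146 to 158 CPM with SGC0946 and 62.3 to 70.8 CPM with SGC0649 in Th2 (1.19 ± 0.12, adjusted p = 1.86e-05). It was the 1 called gene of the residence list in Th1, and 2 of 20 rose and 1 fell in Th2. Over all genes, 0.467% were called in Th1 and 7.96% in Th2, there 5.45% higher and 2.51% lower. Of the egress genes, S1pr1, the receptor for exit from lymphoid tissue, rose with SGC0946 in Th2 (0.95 ± 0.10, adjusted p = 5.13e-05) and fell in KO Th2 (-0.30 ± 0.11, adjusted p = 0.0228), and 4 of 12 rose and 1 fell with SGC0946 in Th2.

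Itga1 and Itga4 varied most over the 10 groups, with a range of group means of 5.76 and 5.03 on the log2 scale, ahead of Itgae at 4.39. For each, the genes with the most similar profile over the 10 group means were looked up among 9647 genes of at least moderate level, by the root mean square difference of the centred log2 CPM. Nearest to Itga1 were Spns2 (0.65), a transporter of sphingosine 1-phosphate, Itgax (0.72) and Adgrg3 (0.77). Nearest to Itga4 were Sox4 (0.27), Klf11 (0.44) and Cd86 (0.50). The profiles rest on 10 groups that share libraries between comparisons, and are a description.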

How the data were processed

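RNA from CD4+ T cells gave 20 libraries in 10 pairs. Per the file headers, the deposited tables hold whole-number counts of reads per gene from featureCounts 1.5.3 with the annotation of Ensembl 84 (GRCm38), counted by strand (setting 2). Gene lengths in bases, another deposited unit per the file headers, were used only for levels per kilobase. The submitters' processing notes also name edgeR and limma. The aligner is not given in the sources used here. The 10 subunits and all gene lists were chosen with earlier results of these data known.

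Of 22048 protein-coding genes, 13072 passed filterByExpr (minimum count 10, minimum total 15). Counts were scaled by TMM. A robust quasi-likelihood model with 1 mean per group was fitted to all 20 libraries with edgeR 4.0.16 in R 4.3.3, leaving 10 residual degrees of freedom, so the groups share 1 estimate of spread per gene. The common biological coefficient of variation was 0.0963. Benjamini-Hochberg adjustment ran over every gene tested, and an adjusted p below 0.05 was called. SE is the log2 fold change divided by the root of the F statistic, as a size. Intervals are at 95%, and CPM is the count scaled to the TMM-adjusted library size. Counting depth limits Itga1 and Itga2 in WT cells most.

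All 10 subunits were read in every comparison. Of each list, up to 3 called genes were picked by largest change, where the mean log2 CPM was 1 or more and the groups did not overlap. Not all genes so picked are named. Genes named outside that rule (Ccr7, Cd4, Cd69, Cd8a, Cdh1, Cerkl, Eomes, Foxp3, Gzma, Itga2b, Itgav, Klf2, Klrc2, Ncr1, Pelo, S1pr1 and Zfp683 in some conditions) were added after their values were seen. A gene of the egress list and one of the platelet list are not reported here, and counts and sums leave them out. Tested on simulated counts of 13072 genes with 200 changed, the fit recovered 64% of 2-fold and 92% of 4-fold changes in KO Th1 and 63% and 91% in KO Th2, with 8 and 9 false calls. Each simulated gene had the same spread in every group, unlike the real groups. Of the real genes, 50.6% were called in KO Th1 and 53.4% in KO Th2. The simulated rates therefore cannot be taken as the rates in these data.

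Alternatives were RLE scaling, no filter, the table of all gene classes, a contrast's own libraries alone, DESeq2 1.42.0, limma voom 3.58.1, a block by replicate number, and leaving out each library. Deviations from the group means correlated between libraries of the same number in all 15 pairs of WT cultures (0.224 to 0.751) and all 3 pairs of KO and WT (0.131 to 0.325). The labels do not say that the number pairs libraries. The block gave replicate 2 of all 10 groups 1 shared shift. It thus also covered groups without such a correlation, such as KO Th1 with KO Th2 (0.0109) and WT Th2 with WT naive (-0.0504). The main fit had no block and treated libraries as unpaired. Over all 45 pairs of groups the correlations ran from -0.168 to 0.751, and 22 were above 0.1. In the count table the replicate 2 columns of SGC0946 carry the number 1, and they were matched to the titles by their unique sample number.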

Additional observations from a re-analysis of the deposited data

Results flagged for a closer look

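The KO effect differed between conditions, by the test of the difference itself, for 8 subunits between Th1 and Th2, 4 between Th1 and naive cells and 8 between Th2 and naive cells. Values are differences of log2 fold changes, adjusted p under 0.05 by edgeR's quasi-likelihood test. Th1 minus Th2 was -2.61 for Itga1, -1.83 for Itga2, -2.25 for Itgae, -1.24 for Itgal, -0.57 for Itgb1, -1.69 for Itgb2, -1.83 for Itgb3 and -1.94 for Itgb7. Th1 minus naive was 0.95 for Itga4, -2.78 for Itgae, -0.64 for Itgal and -1.38 for Itgb1. Th2 minus naive was 3.66 for Itga1, 1.33 for Itga2, 1.58 for Itga4, 0.59 for Itgal, -0.81 for Itgb1, 1.40 for Itgb2, 1.88 for Itgb3 and 1.67 for Itgb7. Itga4 and Itga2 gave calls that single libraries decided: Itga4 in Th1 minus naive (adjusted p = 0.0516 to 0.0681 without WT naive replicate 1, KO naive replicate 2, WT Th1 replicate 2 or KO Th1 replicate 1) and Itga2 in Th2 minus naive (0.0561 to 0.096 without WT naive replicate 1 or 2, KO naive replicate 2, WT Th2 replicate 2 or KO Th2 replicate 2). Itgal in Th2 minus naive was lost without KO Th2 replicate 2 (adjusted p = 0.0641).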

How the results depend on the processing

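Over 170 tests of single subunits and 2070 alternative values, 1961 kept their direction and side of the threshold, 67 lost a call, 42 gained one and 0 reversed a call. Uncalled values changed sign in 42 cases. The number of subunits called moved by over 1.5 times in 4 comparisons. For SGC0946 against SGC0649 in Th1 it was 3 with the contrast's libraries alone. For the same comparison in Th2 it was 1 with no filter, 0 with the contrast's libraries alone, 4 by DESeq2 and 1 to 7 on leaving out single libraries: 7 without SGC0649 replicate 1, 4 without SGC0946 replicate 2, and 1 without either other library. For SGC0649 against no compound in Th2 it was 0 to 3 on leaving out single libraries. For KO minus inhibitor in Th1 it was 3 to 4, and 3 without WT Th1 replicate 2, KO Th1 replicate 1 or any 1 of the 4 compound libraries. With a library left out, the lone library of its group is assumed to vary like the other groups. In the other KO comparisons it stayed within 1.5 times. For KO against WT in naive cells it fell whichever library was left out. In Th1 and in Th2 it fell for some of the libraries left out. The causes of these moves were not tested.

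With the replicate block, 3 subunits were called for SGC0946 in Th2, 9 for WT Th1 against Th2, 9 for the KO effect in Th1 minus Th2 and 9 for KO minus inhibitor in Th2. Where libraries share only a number, it added Itga2 in KO Th1 against Th2 (adjusted p = 0.0371) and in WT Th2 against naive cells (0.0411). It changed no other call. Over all genes, 3708 were called in KO naive cells and 1571 to 3293 on leaving out a library, 61 with SGC0946 in Th1 (561 with its libraries alone, 140 by DESeq2, 136 with the block, 100 with no filter, 3 to 6 leaving out a library) and 1040 in Th2 (0 with its libraries alone, 330 to 1966 leaving out a library). With SGC0649 in Th2, 88 were called (207 with no filter, 523 with the block, 0 alone, 137 by voom, 540 by DESeq2, 2 to 2402 leaving out a library). Levels scaled by RLE were 0.978 to 1.015 times those scaled by TMM.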
